A study of Caenorhabditis elegans with 2 samples.

Results

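The regions described here are the candidate regions of an eGFP-LIN-39 chromatin immunoprecipitation (ChIP-seq) experiment that lay beside tRNA genes. A region was taken when its summit stood within 500 bp of a gene of biotype tRNA in Ensembl's annotation of the WBcel235 genome. Of the 30000 regions in the authors' list from both replicates, 239 met that rule, and the other 29761 served as the comparison. The same rule found 225 regions in the list of replicate 1 and 205 in the list of replicate 2. Neither the signal values nor the ranks entered the choice.

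The study mapped LIN-39 in whole L2 larvae of Caenorhabditis elegans. All samples were of strain OP18, genotype unc-119(ed3) III; wgIs18, in which a transgene insertion supplies the tagged lin-39. The worms were of mixed sex, and the 2 libraries were biological replicates of 1 group. No untagged, untreated or otherwise different group was among the samples, so the comparisons run between the regions of a list and between the replicates.

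LIN-39 is the Hox protein of the mid-body, a homeodomain transcription factor known for its part in the vulva, in nerve cells of the ventral cord and in cell migration. tRNA genes are read by another enzyme than coding genes, RNA polymerase III, which is recruited through promoter elements inside the gene, the A box and the B box. The factor TFIIIC binds those boxes and brings in TFIIIB, which places the polymerase at the start of the gene. Genes for tRNAs are short, stand alone, in groups or inside introns of coding genes, and most occur in several identical copies.

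The annotation held 612 nuclear tRNA genes, and a RefSeq record gave the amino acid for 607 of them. Standing beside a tRNA gene is a statement of position and does not say that the protein touched the gene itself. The windows printed next are the sequence around the summit at 3 of the 8 members on the authors' optimal list, shown as examples of a summit within 50 bp upstream of a tRNA gene. They are 201 bases each, centred on the summit, read on the strand of the tRNA gene from the RefSeq sequence of WBcel235 (ce11), with bases of tRNA genes in capitals.
R04A9.t1: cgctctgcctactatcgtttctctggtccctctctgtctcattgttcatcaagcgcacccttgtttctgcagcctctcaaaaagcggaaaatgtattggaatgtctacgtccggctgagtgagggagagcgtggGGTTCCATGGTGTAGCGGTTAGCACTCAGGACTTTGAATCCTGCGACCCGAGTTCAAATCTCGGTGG
C04A11.t1: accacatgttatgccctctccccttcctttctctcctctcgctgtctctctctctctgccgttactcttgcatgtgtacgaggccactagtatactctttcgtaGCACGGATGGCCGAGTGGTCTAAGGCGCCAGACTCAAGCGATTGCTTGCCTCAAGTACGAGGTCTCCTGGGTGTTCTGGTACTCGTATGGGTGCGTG
C53C7.t1: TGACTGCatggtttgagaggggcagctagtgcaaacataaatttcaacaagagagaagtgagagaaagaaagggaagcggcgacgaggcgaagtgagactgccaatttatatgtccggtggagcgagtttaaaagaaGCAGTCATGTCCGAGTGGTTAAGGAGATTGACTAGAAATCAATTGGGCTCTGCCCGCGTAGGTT

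The first window is X:410257-410457 at the glutamine tRNA gene R04A9.t1, the second X:13665451-13665651 at the leucine tRNA gene C04A11.t1 and the third X:13046441-13046641 at the serine tRNA gene C53C7.t1, all on the plus strand. In each of them the summit fell just before the start of the gene, at 34, 4 and 37 bp, so that the window ends inside the gene. The capitals at the start of the third window belong to a neighbouring serine tRNA gene, C53C7.t2. The window of C04A11.t1 and that of C53C7.t1 held the word GAGAGA on one of the strands, outside the gene. R04A9.t1 is 1 of 15 identical gene copies and C53C7.t1 is 1 of 11, whereas the sequence of C04A11.t1 occurred once among the tRNA genes.

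Regions beside tRNA genes lay near the middle of the signal ranking as a group, with a small set at the top. Their median rank was 13394 of 30000, against 15011 for the other regions, and their lower quartile of ranks was 4980.5, against 7522. Among regions with 90% or more unique sequence the order turned, with medians of 15450 and 14890. In the list of replicate 1 the medians were 12967 and 15012, and in that of replicate 2 they were 13342 and 15013. The signal value is the caller's own, on a scale the labels leave unstated, so ranks are read within 1 list only. Across the members it ran from 15.2 to 133, with a median of 19.6.

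The strongest 1000 regions of the list held 17 of the 239 members, 7.11% (exact 95% interval 4.20 to 11.1), where 3.33% of all regions have that rank by definition. Among the other regions 983 of 29761 did. In the single replicates, where 3.33% of all regions are again among the strongest 1000, the counts were 18 of 225 (8.0%) and 14 of 205 (6.83%). The wider set of the strongest 5000, 16.7% of all regions, took 60 members or 25.1% (interval 19.7 to 31.1). The excess was not seen among the 128 members with 90% or more unique sequence, of which 3 (2.34%) were among the strongest 1000. Intervals here cover the counting of regions only: read depth is unknown, regions of 1 library are not replicates of a condition, and the list from both replicates shares its reads with the replicate lists.

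At rank 1000 of the list from both replicates, the excess was found on the X chromosome. On X, 14 of 116 members were among the strongest 1000 (12.1%, interval 6.76 to 19.4), against 233 of 6212 other regions on X (3.75%). On the autosomes the count was 3 of 123 (2.44%, interval 0.506 to 6.96), against 750 of 23549 (3.18%). Both replicates showed this order, with 13 of 111 members on X (11.7%) and 5 of 114 on the autosomes (4.39%) in replicate 1, and with 10 of 92 (10.9%) and 4 of 113 (3.54%) in replicate 2. The other regions had 3.50% on X and 3.25% on the autosomes in replicate 1, and 3.90% and 3.16% in replicate 2. Autosomal members were thus slightly above the others in each replicate list. The intervals of X and of the autosomes overlapped in each replicate list and, narrowly, in the list from both. Among the strongest 5000 of the list from both, members stood above other regions on X, at 29.3% against 17.6%. On the autosomes they did so too, at 21.1% (interval 14.3 to 29.4) against 16.3%. The median rank of the members was 12015 on X and 14184 on the autosomes, where the other regions had 14558.5 and 15135.

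**Figure D1:**
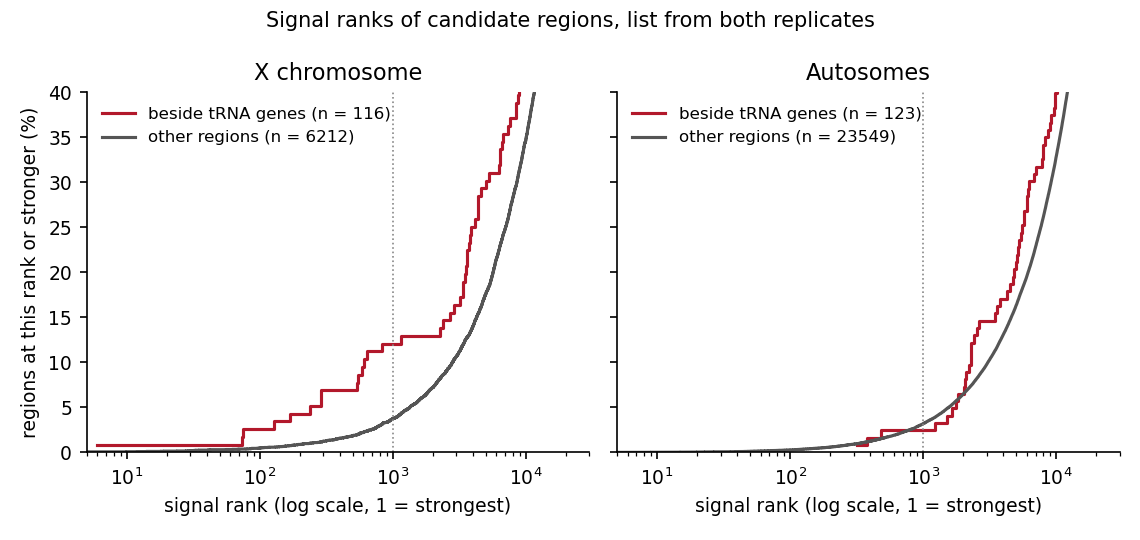
Cumulative share of regions (y axis, percent, cut at 40%) by signal rank in the list from both replicates (x axis, log scale), for X and for the autosomes; red is the regions beside tRNA genes, grey the other regions, and the dotted line is rank 1000. On X the red line stands above the grey one at rank 1000 (12.1% against 3.75%), and on the autosomes it stands at 2.44% against 3.18%.

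The authors' optimal list of 311 peaks held 8 of the 239 members (3.35%, interval 1.46 to 6.49), where it held 1.04% of all regions. All 8 were on X, which is 6.90% of the 116 members there. None of the 123 autosomal members was on it, which allows a share of up to 2.95% by the same interval. The optimal list is the top of the list from both replicates, so its members are also the 8 strongest regions beside tRNA genes, and they are described one by one.

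The strongest lay at X:8036246-8036555 in intergenic sequence, 284 bp downstream of C18A11.t2, an arginine tRNA gene, with signals of 133 in the list from both replicates, 87.2 in replicate 1 and 43.9 in replicate 2. Its ranks in those lists were 6, 6 and 31, so it was near the top in every list. Of the 8 it alone had no base of the tRNA gene within 100 bp of the summit. The nearest coding 5′ end was that of xol-1, a gene that sets the sexual fate of the embryo by the number of X chromosomes, at 4912 bp. It was the 1 member whose summit window held GCGCAGGG, the core of a motif known from recruitment sites of the X chromosome's dosage compensation complex, a word found beside 34 of 29761 other summits (0.114%). The word was more frequent among the strongest 1000, beside 11 of 983 other summits (1.12%). On X it was beside 16 of 6212 other summits (0.258%). The word is shown in capitals in its surroundings, X:8036415-8036462 on the plus strand of ce11, because it set this region apart from every other member.
C18A11.t2: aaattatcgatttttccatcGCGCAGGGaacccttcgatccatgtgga

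The next member, at X:3036030-3036339, had its summit inside M02F4.t1, a glycine tRNA gene whose sequence is shared by 29 genes, the largest family of identical copies. Its signals were 68.4, 33.8 and 32.1 in the list from both, replicate 1 and replicate 2, at ranks 74, 108 and 76. R04A9.t1, the glutamine tRNA gene of the first window above, had signals of 68.2, 28.7 and 31.2 at ranks 75, 198 and 85. These summits stayed in place between the lists: the replicate regions of M02F4.t1 had the same centre, and those of R04A9.t1 were shifted by 10 and 36 bp. R04A9.t1 lay in an intron and 414 bp from the 5′ end of ZK1193.2.

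C28G1.t1, a glutamate tRNA gene, held the summit of X:8835993-8836302 inside it, in the UTR of a coding gene and 132 bp from the 5′ end of C28G1.2. Its ranks were 128, 272 and 126. F46G11.t2, a proline tRNA gene, had its summit 8 bp upstream at ranks 168, 216 and 222, and C04A11.t1 had it 4 bp upstream at ranks 238, 289 and 640. All of these stood among the strongest 1000 of each replicate. C04A11.t1 is a leucine tRNA gene of 119 bases, longer than the median of 72 over all nuclear tRNA genes.

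The remaining 2 members on the optimal list agreed less between the replicates. At the serine tRNA gene C53C7.t1 the ranks were 288, 876 and 179, with replicate summits 58 and 62 bp away from the common one, and the replicate 2 region was nearer to the neighbouring gene C53C7.t2. At C02F12.t1, a methionine tRNA gene with the summit 78 bp upstream in an intron, the ranks were 289 and 174 in the list from both and in replicate 1, but 13577 in replicate 2. Its signals were 43.4, 29.4 and 10.3. Replicate 2 therefore placed this region near the middle of its list.

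The members between ranks 312 and 1000 were 9, of which 6 were on X and 3 on the autosomes. The autosomal ones were F47G6.t1, an arginine tRNA gene, at rank 318, K11H3.t2, a serine tRNA gene, at rank 379, and F53F8.t1, a cysteine tRNA gene, at rank 485. Each of the 3 lay in an intron, and each was strong in 1 replicate only: their ranks in replicates 1 and 2 were 161 and 2816, 2352 and 421, and 407 and 2047. On X the 6 were the valine gene C52G5.t1 at rank 539, the lysine genes W03G11.t1 at 548, C33G3.t2 at 603 and K11E4.t5 at 637, the tyrosine gene R11.t1 at 589 and the arginine gene T01C1.t1 at 822. None of those 6 was among the strongest 1000 of both replicates. C52G5.t1, at 2511 and 2249, was so in neither. Below rank 1000 came R04D3.t2 (valine, X) at 1151, Y39G10AL.t1 (glycine, I) at 1220 and F15B9.t1 (alanine, V) at 1523, which complete the 20 strongest members.

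Coding genes with the nearest 5′ end to the 10 strongest members were xol-1, M02F4.2, ZK1193.2, C28G1.2, F46G11.4, C04A11.5, C53C7.3, C01C4.3, spe-15 and twk-48, at distances from 132 bp (C28G1.2) to 4912 bp (xol-1). spe-15 encodes a myosin needed in spermatogenesis, and twk-48 a potassium channel of the TWK family. Counting as promoter-proximal any summit no more than 1000 bp upstream or 200 bp downstream of a coding 5′ end, 62 of 239 members were (25.9%), close to the 26.8% of the other regions. Of the 177 members elsewhere, 15 were among the strongest 1000 (8.47%, interval 4.82 to 13.6), against 2.96% of the other regions elsewhere. Of the 62 promoter-proximal ones 2 were (3.23%, interval 0.393 to 11.2), against 4.23%.

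The summits crowded at the gene itself. Inside tRNA genes the list from both replicates had 0.785 summits per kb of sequence, at 1 to 100 bp it had 0.614 and at 101 to 200 bp 0.388. From 201 to 2000 bp the density lay between 0.241 and 0.323, around the genome's 0.299. Replicate 1 had 0.611, 0.639 and 0.369 over the first 3 distances and replicate 2 had 0.676, 0.588 and 0.249. The rise was therefore within 200 bp of the gene in the list from both and in replicate 1, and within 100 bp in replicate 2. For scale, the regions are 310 bp wide in the list from both, 330 in replicate 1 and 300 in replicate 2, and a tRNA gene has a median of 72 bases.

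For the strongest 1000 the slope was steeper. The list from both had 131 such summits per Mb inside tRNA genes, 67.3 at 1 to 100 bp, 18.5 at 101 to 200 bp and none between 301 and 500 bp, with 9.97 over the genome. On X the density was 194 per Mb inside the genes and 131 at 1 to 100 bp, against 13.9 over that chromosome. These rest on few regions: 6 inside the genes and 8 at 1 to 100 bp in all, of which 4 and 7 were on X.

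**Figure D2:**
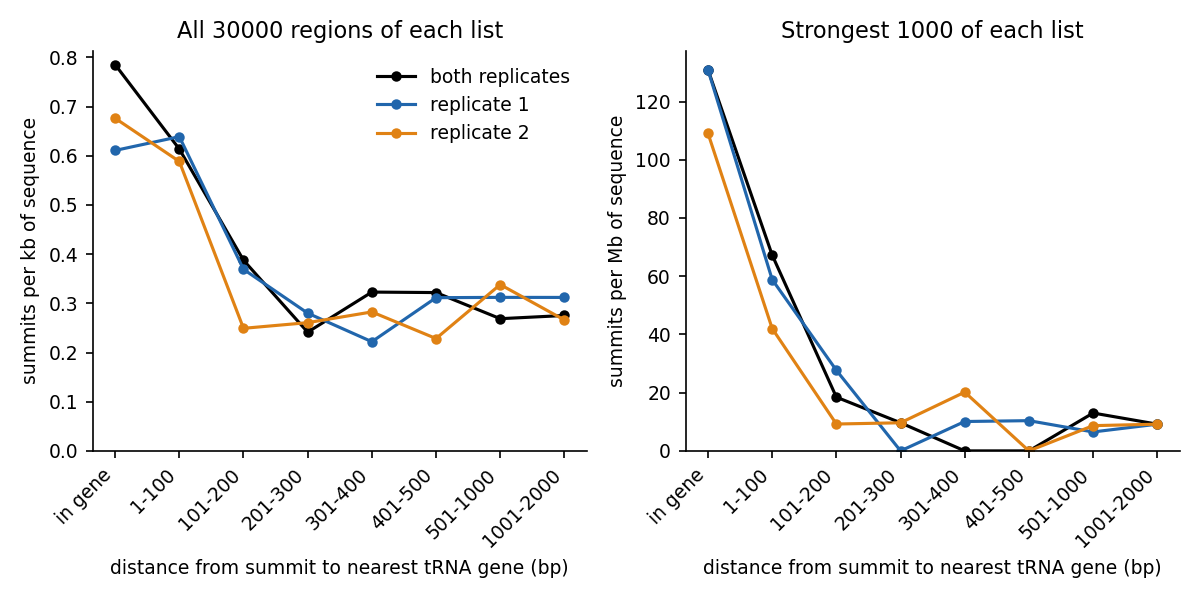
Summits per kb for all 30000 regions of each list (left) and summits per Mb for the strongest 1000 (right), by distance in bp from the summit to the nearest tRNA gene; black is the list from both replicates, blue replicate 1 and orange replicate 2. All 3 lists are highest inside the gene or at 1 to 100 bp, and from 201 bp outward the left panel stays near the genome's 0.299 per kb.

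The median member stood 129 bp from its gene, and the 17 strongest stood at a median of 8 bp, with 14 of them within 100 bp. For the 222 members below rank 1000 the median was 144 bp. In replicate 1 the corresponding medians were 17 and 135 bp and in replicate 2 they were 27.5 and 110 bp. On X, 11 of the 54 members within 100 bp were among the strongest 1000 (20.4%, interval 10.6 to 33.5), against 3 of the 62 farther away (4.84%). On the autosomes these counts were 3 of 55 (5.45%, interval 1.14 to 15.1) and 0 of 68. The members on X and on the autosomes were divided alike between near and far, and the strong regions of X were mostly next to the gene. The intervals of the near members on X and on the autosomes overlapped.

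Read on the strand of the gene, 101 members had the summit upstream, 102 downstream and 36 inside. Among the 17 strongest these were 8, 3 and 6. The rule's border was unremarkable: the 3 members just inside 500 bp, beside C11G10.t1 (arginine), K02D3.t1 and F52E10.t2 (glutamate), ranked 18539, 9764 and 21928 at 481, 495 and 497 bp. The 3 regions just outside, beside M163.t1 (lysine), C52E12.t3 (alanine) and W03C9.t1 (valine), ranked 19325, 6631 and 20704 at 506, 515 and 522 bp.

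Most tRNA genes have identical copies elsewhere, which bears on how reads are placed. The 612 genes had 200 distinct sequences, and 469 of them (76.6%) had at least 1 identical copy. A region was called unique where 90% or more of its words of 31 bases occurred once in the genome. Of the members 128 of 239 were (53.6%), against 96.9% of the other regions, and of the 17 strongest members 3 were. A region that covers a tRNA gene is less unique by construction, and it is the regions at the gene that were strong.

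With only the unique regions the excess of strong members was gone: 3 of 128 (2.34%, interval 0.486 to 6.70) were among the strongest 1000, against 3.35% of the unique other regions. Of the 8 members on the optimal list 1 was left, the one at C18A11.t2. On X the unique members had 3 of 60 (5.0%, interval 1.04 to 13.9), against 3.80% of the unique other regions on X. The members under 90% had 14 of 111 (12.6%, interval 7.07 to 20.3), whereas other regions under 90% had 18 of 916 (1.97%). Of those 916 regions 836 were autosomal.

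The sequence around the genes was seldom repeated. Leaving out every word that touches a tRNA gene, all 17 of the strongest members had 100% unique words in the rest of the region, and 222 of the 239 members did. How the authors placed reads with several matches is not stated in the labels or the deposited text files. The part of repeated gene sequence in the ranks was not tested.

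X held 116 of the 239 members, 48.5% (interval 42.0 to 55.1), against 20.9% of the other regions. In replicate 1 the share was 49.3% and in replicate 2 44.9%. The tRNA genes themselves are gathered there: X has 276 of the 612 genes, 45.1%, on 17.7% of the sequence, which is 15.6 genes per Mb against 3.73 to 4.64 on the autosomes. The share of members on X was thus close to the share of tRNA genes on X.

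Counted by gene, 260 of the 612 tRNA genes (42.5%, interval 38.5 to 46.5) had a region within 500 bp, where 47.2% of all nuclear genes did. In replicate 1 it was 238 genes (38.9%, against 48.4% of all nuclear genes) and in replicate 2 227 genes (37.1%, against 45.6%). 122 genes had a region in both replicate lists, 19.9% against 29.8% of all nuclear genes. A gene that is longer has more room for a summit, and the median coding gene spans 2027 bp, so classes of short genes are the nearer comparison. Of those, snoRNA genes had a region at 42.5%, miRNA genes at 37.5%, ncRNA genes at 39.8% and snRNA genes at 31.8%. piRNA genes, the shortest class with a median of 21 bp, had one at 29.2%, and rRNA genes at 1 of 20. The shares of miRNA, snRNA, piRNA and rRNA genes were below the interval of tRNA genes. The intervals of miRNA genes (31.7 to 43.7) and snRNA genes (23.9 to 40.6) overlapped that of tRNA genes.

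One of the strongest 1000 regions stood within 500 bp of 23 tRNA genes, 3.76% (interval 2.40 to 5.59), where 2.51% of all nuclear genes had one. Of those 46890 genes 15363 are piRNA genes, which lower that share. Coding genes stood at 3.64%, inside the interval of tRNA genes. The shares for snoRNA, snRNA, miRNA and ncRNA genes were 6.65%, 5.43%, 4.21% and 3.90%, and that for piRNA genes was 0.338%, so tRNA genes were not the class with the highest share. They differed by chromosome: 19 of 276 tRNA genes on X (6.88%, interval 4.20 to 10.5) and 4 of 336 on the autosomes (1.19%, interval 0.325 to 3.02). Those intervals did not overlap in the list from both replicates. Intervals over genes treat each gene as separate, although neighbouring genes can share a region. The genes stood at 14 regions on X and 3 on the autosomes. Counted by region, the intervals of 6.76 to 19.4% and 0.506 to 6.96% overlapped narrowly. The order was the same for all nuclear genes, at 4.68% on X and 2.19% on the autosomes, but 15201 of the 15363 piRNA genes are autosomal. ncRNA genes differed little, at 4.13% on X and 3.79% on the autosomes. Coding genes had 5.46% and 3.35%. snoRNA genes had 0 of 33 on X (interval 0 to 10.6) and 23 of 313 on the autosomes (7.35%, interval 4.71 to 10.8), with overlapping intervals. miRNA genes had 6 of 74 on X (8.11%) and 5 of 187 on the autosomes (2.67%). In the single replicates the tRNA genes had 16 on X and 5 on the autosomes in replicate 1, and 15 and 5 in replicate 2. There the intervals overlapped slightly, at 3.35 to 9.24% and 0.485 to 3.44% in replicate 1 and at 3.07 to 8.81% and 0.485 to 3.44% in replicate 2.

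An optimal peak stood within 500 bp of 11 tRNA genes, all on X and sharing 8 peaks. That is 1.80% of 612 (interval 0.901 to 3.19) against 0.83% of all nuclear genes. The piRNA genes, at 0.0846%, lower that background too, and coding genes stood at 1.13%. The share of tRNA genes with any region was 49.3% on X (interval 43.2 to 55.3) and 36.9% on the autosomes (interval 31.7 to 42.3) in the list from both. The replicates were closer together on this count, at 43.1% against 35.4% in replicate 1 and 39.9% against 34.8% in replicate 2, with overlapping intervals. By chromosome the share ran from 30.3% on I to 49.3% on X, with IV next at 45.1%. All nuclear genes were also higher on X in the list from both, at 57.4% against 45.7% on the autosomes. Coding genes, which are longer, had 74.7% and 63.6%.

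**Figure D3:**
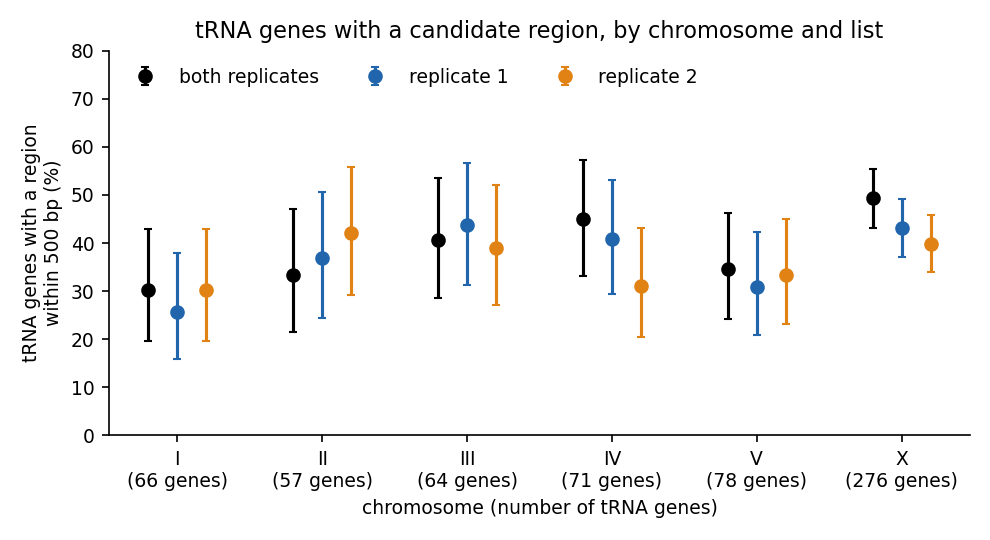
Share of tRNA genes with a candidate region within 500 bp (y axis, percent) for each chromosome (x axis, number of tRNA genes in parentheses), in the list from both replicates (black), replicate 1 (blue) and replicate 2 (orange); bars are exact 95% intervals that cover the counting of genes. In the list from both replicates X is highest at 49.3% and I lowest at 30.3%, and the order of the autosomes differs between lists.

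The order of X and the autosomes was the same for solitary and for grouped genes. Genes on X stand in groups more often: 135 of 276 had another tRNA gene within 1000 bp, against 101 of 336 on the autosomes. Among solitary genes 8 of 141 on X (5.67%, interval 2.48 to 10.9) and 2 on the autosomes (0.851%, interval 0.103 to 3.04) had one of the strongest 1000. Among grouped genes it was 11 of 135 (8.15%) and 2 of 101 (1.98%), so X was higher in both kinds when counted by gene. Grouped genes can share a region. The 2 autosomal ones, K11H3.t1 and K11H3.t2, shared 1, and 3 of those on X shared the region at K11E4.t5. The median number of identical copies was 10 on X and 9 on the autosomes.

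Of the 476 groups, single genes included, 41.5% of the 376 single genes, 53.8% of the 78 pairs and 68.2% of the 22 larger groups had a region. Larger groups cover more sequence. The largest were on X: the 6 genes from F22F1.t2 to F22F1.t7, for isoleucine, serine, methionine and aspartate, had a best rank of 9289, and the 5 glutamine genes of H08J11 had a best rank of 3362. The 6 histidine genes from F28H6.t2 to F28H6.t5 had no region at all. None of these groups, the 3 largest together with the equally large K01A12 group of 5 at a best rank of 20766, had one of the strongest 1000.

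By amino acid, the glutamine genes led with a region at 19 of 27 (70.4%, interval 49.8 to 86.2), followed by leucine at 22 of 39 (56.4%). Methionine was lowest at 4 of 20 (20%, interval 5.73 to 43.7), apart from the single selenocysteine gene, which had none. Glutamine was at 59.3% in either replicate, the highest of the amino acids in both, while methionine was at 35.0% and 20%. Most of the intervals overlapped, and the amino acids were ranked after their values were seen. The strongest 1000 were spread over many of them, with lysine beside 5 genes, serine beside 4 and arginine beside 3, where neighbouring genes can share a region.

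**Figure D4:**
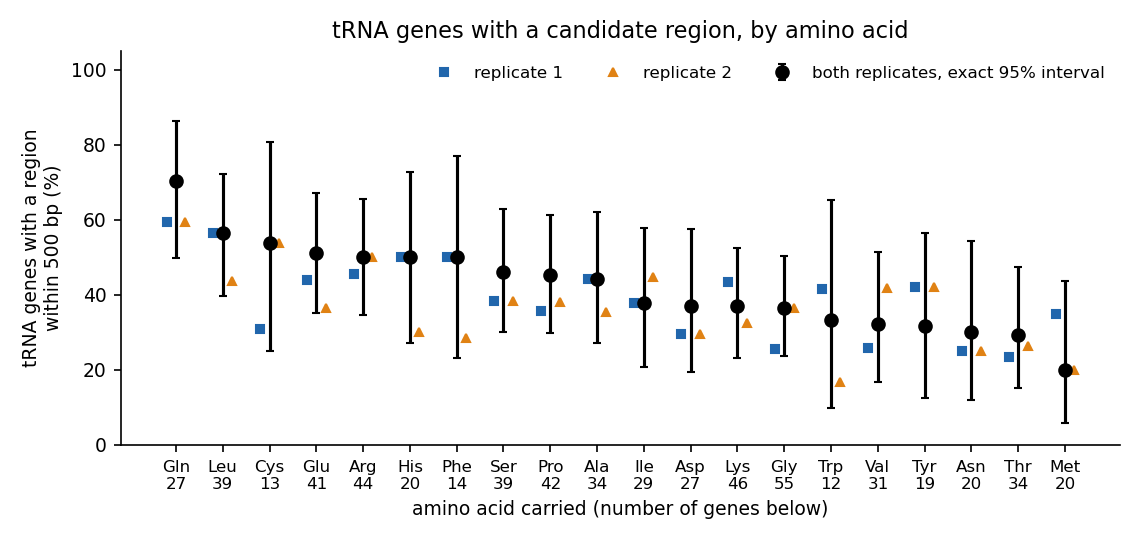
Share of tRNA genes with a candidate region within 500 bp (y axis, percent) by the amino acid the tRNA carries (x axis, number of genes below); black points are the list from both replicates with exact 95% intervals, blue squares replicate 1 and orange triangles replicate 2. Glutamine is highest at 70.4% and methionine lowest at 20%, and most intervals overlap.

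The copies of a family did not all have a strong region. The glycine family of 29 identical genes had a region at 12 of them and one of the strongest 1000 at 1, M02F4.t1. The lysine family of 25 had 9 and 3, and the proline family of 24 had 14 and 2. These counts are of genes, and neighbouring genes can share a region. The 2 proline genes, F46G11.t1 and F46G11.t2, shared 1, and neighbouring lysine genes shared the region at K11E4.t5. An arginine family of 10 copies, all on X, had a region at 7 and one of the strongest 1000 at 2. Genes with 1 copy had a region at 40.6%, those with 2 to 10 copies at 41.2% and those with more at 44.3%. One of the strongest 1000 stood near 2 of the 143 single-copy genes (1.40%, interval 0.170 to 4.96) and near 13 of the 287 with over 10 copies (4.53%, interval 2.43 to 7.62).

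A region in both replicate lists overlapped 102 of the 239 members (42.7%, interval 36.3 to 49.2), against 34.8% of the other regions and 34.9% of all regions. Among regions with 90% or more unique sequence that excess was gone, at 44 of 128 members (34.4%, interval 26.2 to 43.3) and 35.2% of the other regions. For 98 of the 102 both replicate summits were themselves within 500 bp of a tRNA gene. A match in neither replicate was found for 21 members (8.79%), near the 7.68% of all regions. Across the 102 members the ranks of the replicates had a Spearman rho of 0.280, and across the 10365 matched other regions 0.163. The regions of a list share its library, depth and mapping, so these are descriptions only. On X rho was 0.362 over 50 members, and on the autosomes 0.126 over 52.

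The matched regions were among the strongest 1000 of both replicates for 7 members, 2.93% (interval 1.19 to 5.94), where 0.88% of all regions were. All 7 were on X, at C18A11.t2, M02F4.t1, R04A9.t1, C28G1.t1, F46G11.t2, C04A11.t1 and C53C7.t1, and none of the 123 autosomal members was. For 20 members (8.37%, interval 5.19 to 12.6) only 1 replicate had the match among its strongest 1000, where 5.03% of all regions had. On X these were 10 members (8.62%, against 5.14% of the other regions there) and on the autosomes 10 (8.13%, against 4.96%).

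**Figure D5:**
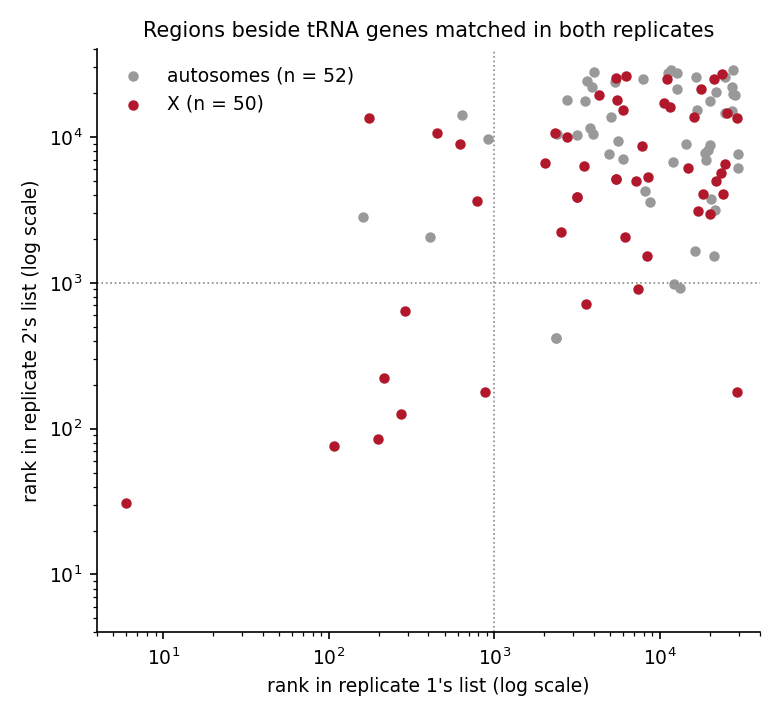
Rank of the matched region in replicate 1 (x axis, log scale) against replicate 2 (y axis, log scale) for the 102 regions beside tRNA genes with a match in both lists; red is X (n = 50), grey the autosomes (n = 52), and dotted lines are rank 1000. The lower left corner holds the 7 regions among the strongest 1000 of both replicates, and all of them are red.

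The widest gaps were at C53C7.t1, T03E6.t1 and C02F12.t1. A second region at C53C7.t1, ranked 9547, was matched to ranks 29087 and 179, but a stronger region of replicate 1, at rank 876, overlapped it too. The region at T03E6.t1, a glutamine gene on V, had ranks of 636 and 14205, from replicate regions that did not overlap each other. C02F12.t1 had 174 and 13577 as given above. Some strong regions of 1 replicate had no counterpart. Replicate 1 placed a region at rank 548 by sup-7, a tryptophan tRNA gene known from amber suppressor mutations, with none in replicate 2. Replicate 2 placed one at rank 279 by the asparagine gene F41D9.t3, with none in replicate 1.

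The members differed from other regions in what their summits lay on, which follows in part from the rule, since they stand where tRNA genes are. Summits in intergenic sequence made up 47.7% of the members and 36.8% of the others, introns 33.1% and 30.4%, and coding sequence 15.5% and 27.1%. On X 61.2% of the members were intergenic, against 41.1% of the other regions there, and on the autosomes 35.0% against 35.7%. The tRNA genes are placed in the same order, with 180 of 276 on X and 141 of 336 on the autosomes outside coding gene spans. About as many tRNA genes lie within the span of a coding gene, 291 of 612, as outside. Those inside had one of the strongest 1000 at 11 of 291 (3.78%) and those outside at 12 of 321 (3.74%). All 4 such genes on the autosomes were inside, of 195 there, and on X it was 7 of 96 inside and 12 of 180 outside. Of the genes with one of the strongest 1000 in both replicates, 2 were inside (0.687%) and 8 outside (2.49%), with overlapping intervals of 0.0833 to 2.46 and 1.08 to 4.85.

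Short words were looked for on either strand in the 201 bases centred on each summit, and a match is a description of letters, not a site. GTTCGANNC, a form of the B box, was beside 57 of 239 summits (23.8%), against 1.45% of other summits, and GCNNAGTNG, a form of the A box, beside 18.0% against 3.70%. That follows from the rule, since the words are part of tRNA genes: 441 of the 612 genes held the first and 233 the second. Genes with the B box word had a region at 40.6% and genes without it at 47.4%, with overlapping intervals of 36.0 to 45.3 and 39.7 to 55.1.

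GAGAGA, a word of the GAGA type found at many promoters and enhancers, was beside 47 members (19.7%, interval 14.8 to 25.3) and 13.1% of the other summits. Among the strongest 1000 it was beside 7 of the 17 members (41.2%, interval 18.4 to 67.1) and 34.3% of the others, so it was more frequent at the top in both sets, with a wide interval for the members. TGATNNAT, the form of a joint site of Hox and PBX proteins, was beside 12.6% of the members (interval 8.63 to 17.4) and 17.0% of the others. Among the strongest 1000 it was beside 1 of 17 members (interval 0.149 to 28.7) and 21.4% of the others. TAATTA, a homeodomain core, stood at 8.37% and 9.22%, and TGATAA at 15.5% and 18.9%. Among the strongest 1000, TAATTA was beside 2 of 17 members (11.8%, interval 1.46 to 36.4) and 7.02% of the others, and TGATAA beside 2 of 17 and 14.0%.

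Genes of RNA polymerase III and its factors, and genes that charge tRNAs, were looked at in the same list, by whether a summit lay in the promoter window given above. The first set was not limited to factors of tRNA genes and included the snpc genes and mafr-1. Of 19 genes listed for RNA polymerase III and its factors, 17 were found in the annotation, and 2 of them had a region, 11.8% against 37.1% of all coding genes. These were rpc-25, a polymerase subunit, at rank 23685, and tbp-1, the TATA-binding protein, at rank 25897. Of 23 cytosolic aminoacyl-tRNA synthetases, which load tRNAs with amino acids, 22 were found and 2 had a region (9.09%), fars-1 for phenylalanine at rank 18419 and vars-1 for valine at rank 16351. In replicate 1 the counts were 6 of 17 and 4 of 22, and in replicate 2 they were 5 of 17 and 2 of 22. The share of all coding genes was not counted in the replicate lists. The comparison with 37.1% therefore holds for the list from both replicates only. None of the genes on either list had one of the strongest 1000 in any of the 3 candidate lists, where 2.08% of all coding genes had one in the list from both replicates.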

How the data were processed

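ChIP-seq peak tables in narrowPeak form were used on ce11, for 2 biological replicates of 1 group. Per the deposited text files, a candidate list was derived from each replicate's alignments, a further one from both, and the optimal list from all 3. The sources used here do not name the aligner, the caller, the IDR threshold or the treatment of reads with several matches. The signal per region is the value the authors deposited, on a scale not stated; it was used for ranks within 1 list. The deposited q column was treated as a score, since 19118 of its 30000 values in the list from both replicates lay below 0, and no result uses it. Tables on ce10 were not used. Depth is unknown.

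tRNA genes and other gene classes came from Ensembl release 115 and amino acids from RefSeq by WormBase gene identifier. All 612 nuclear tRNA genes were matched, and 607 had a known amino acid. The 22 mitochondrial ones were left out. Distance ran from the summit to the nearest gene base. A member was matched in a replicate list to the region of largest overlap, 1 bp or more. tRNA genes within 1000 bp were joined into groups. Uniqueness used words of 31 bases on both strands. Intervals are exact Clopper-Pearson at 95%. No test was run: there is 1 group, and regions are not replicates. Code was checked on simulated regions. Members, lists and words were chosen with earlier results of these data known. Named were the 8 members on the optimal list, the 20 strongest, the 5 strongest per replicate, 3 regions on each side of 500 bp, the 3 largest groups, the 3 most discordant members and the coding genes nearest to the 10 strongest; sup-7 and F41D9.t3 were added after their values were seen. Alternatives varied the distance, the rank threshold, the matching, the word window, promoters, groups and replicates; uniqueness was added after the data were seen. Python 3.11.15 was used with NumPy 2.4.6, pandas 2.3.3, SciPy 1.17.1 and matplotlib 3.10.9.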

Additional observations from a re-analysis of the deposited data

How the results depend on the processing

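Of 48 values under an alternative 29 moved. A number of regions counted as moved beyond 1.5 times, a share on the optimal list or in both replicate lists beyond its exact interval, and any other value beyond 1 SD of the replicates. With only regions of 90% or more unique words, an alternative chosen after seeing the data, the members fell behind the other regions: the median rank was 15450 against 14890, the share among the strongest 1000 was 2.34% against 3.35%, on the optimal list 0.781% against 1.02% and in both replicate lists 34.4% against 35.2%. A distance of 250 bp gave a median rank of 11651, 9.94% among the strongest 1000, 22.4% with the summit inside the gene, 34.2% with the B box word and 27.9% of tRNA genes with a region. At 1000 bp there were 363 regions, 9.92% with the summit inside, 16.5% with the B box word and 58.5% of tRNA genes. Taking 1 region per group of tRNA genes gave a median rank of 12302 and 7.98% among the strongest 1000, and leaving out promoter-proximal regions gave 13083 and 8.47%. The share was 4.60% among the strongest 500 and 25.1% among the strongest 5000, where 16.7% of all regions are. Requiring an overlap of 50% of the region gave 34.3% in both lists, and words within 250 bp gave 44.8% for the B box.

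With each replicate left out in turn, read from the other's list, the number of regions ran from 205 to 225, the median rank from 12967 to 13342, the share among the strongest 1000 from 6.83% to 8.0%, on X from 44.9% to 49.3%, inside the gene from 12.4% to 15.1%, with the B box word from 26.3% to 28.0% and tRNA genes with a region from 37.1% to 38.9%. The optimal list and the matching need both replicates. Matching to the strongest overlapping region gave 8 members in place of 7 among the strongest 1000 of both replicates. No paired analysis was possible because the samples form 1 group. Limits are the unknown depth, the missing rule for reads with several matches and the few strong members.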
